A study of Homo sapiens with 8 samples.

Results

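The aldehyde dehydrogenase genes described here are 10 members of the human ALDH family, ALDH1A1, ALDH1A3, ALDH1B1, ALDH2, ALDH3A2, ALDH3B2, ALDH4A1, ALDH6A1, ALDH7A1 and ALDH9A1. They were chosen by gene symbol from the 26475 rows of the deposited gene table, which holds all 19 human ALDH genes, and the other 9 are described after them. RNA was sequenced from BT474, an established human breast cancer line with amplified ERBB2, in 4 libraries labelled NPY1R high and 4 labelled NPY1R low. NPY1R encodes a receptor for neuropeptide Y. The title places the series in work on cells that tolerate the ERBB2 and EGFR inhibitor lapatinib, but the sample labels name no drug for either group, and they do not say how high and low cells were obtained, although they record the group as a genotype. All cells of both groups were seeded below confluence on plates, and total RNA was made into stranded libraries. The groups therefore stand for cells of 1 line that differ in NPY1R, and the labels do not say whether the 4 libraries of a group came from separate cultures. The p-values below measure the spread between these libraries, which may be technical. In bulk RNA, fewer cells that express a gene and less of its RNA per cell cannot be told apart.

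NPY1R itself followed the labels. Its TMM-scaled level in CPM (read counts relative to library size) was 699, 728, 1049 and 950 in NPY1R high replicates 1 to 4 and 90.8, 94.9, 92.8 and 103.65 in NPY1R low replicates 1 to 4, a log2 difference of 3.16 (SE 0.13; edgeR's quasi-likelihood test, adjusted p = 1.1433e-06). Library totals ran from 18025648 to 30609791 expected counts. All 8 luminal epithelial markers of BT474 were present in every library, with 2 called higher and 1 lower in NPY1R high, while markers of other cell types were mostly low and none was called. Of 6 fibroblast markers, COL1A2, DCN and PDGFRB had no count in any library, and the list's summed level, nearly all COL1A1, spanned 10.9 to 17.5 CPM in NPY1R high and 10.4 to 17.5 CPM in NPY1R low. Of 4 endothelial markers none was at 0 throughout, and the sum, mostly VWF, spanned 9.22 to 15.6 and 13.5 to 18.2 CPM. VWF itself averaged 11.7 and 16.1 CPM (log2 −0.47; edgeR adjusted p = 0.0987). Of 4 basal markers KRT14 was at 0 and the sum, mostly TP63, spanned 4.98 to 8.98 and 4.76 to 7.78 CPM. Of 6 immune markers CD3E was at 0 and the sum, mostly CD68 and LYZ, spanned 1.6 to 2.34 and 1.78 to 3.08 CPM. Of 3 adipocyte markers FABP4 was at 0 and the sum, mostly PLIN1, spanned 0.398 to 0.859 and 0.314 to 0.604 CPM. The part of these cell types in the members' values was not tested. Over all 14008 genes tested, 810 were called higher in NPY1R high and 1094 lower at an adjusted p under 0.05. That split depended on the scaling, with 1009 higher and 783 lower under upper-quartile factors and 949 higher and 807 lower under library totals.

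Aldehyde dehydrogenases oxidise aldehydes to carboxylic acids with NAD or NADP as the acceptor of electrons, and most act through a cysteine at the catalytic site. The family holds the enzymes that make retinoic acid from retinal, those that clear acetaldehyde and the aldehydes of lipid peroxidation and membrane lipids, and several that end the breakdown of an amino acid in mitochondria. ALDH1A1 and ALDH1A3 are also known for the dye test of aldehyde dehydrogenase activity that is used to sort stem-like cells of the breast and of breast tumours.

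The coding bases around the catalytic cysteine show how closely the members resemble each other at that site. The PROSITE signature of that cysteine was found in the longest coding sequence of 9 of the 10 members and was not matched in ALDH7A1. The stretches below are 51 coding bases each from the GENCODE 29 transcripts (GRCh38), 5′ to 3′, with the cysteine codon in capitals. They are shown for the 3 pairs of closest relatives, and the partner of ALDH3B2 is ALDH3B1, which is not among the 10.
ALDH1A1 (codon 303): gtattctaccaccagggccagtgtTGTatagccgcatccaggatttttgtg
ALDH1A3 (codon 314): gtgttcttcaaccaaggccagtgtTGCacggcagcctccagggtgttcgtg
ALDH1B1 (codon 319): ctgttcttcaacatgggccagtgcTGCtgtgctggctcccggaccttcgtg
ALDH2 (codon 319): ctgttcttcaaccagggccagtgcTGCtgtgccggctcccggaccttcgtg
ALDH3B1 (codon 244): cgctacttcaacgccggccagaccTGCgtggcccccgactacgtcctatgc
ALDH3B2 (codon 163): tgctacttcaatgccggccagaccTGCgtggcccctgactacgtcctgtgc

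Identity over the longer coding sequence was 72.7% between ALDH1B1 and ALDH2, 71.4% between ALDH3B1 and ALDH3B2 and 66.5% between ALDH1A1 and ALDH1A3. The stretch that matters for counting is in the third pair. ALDH3B1 and ALDH3B2 share an identical run of 64 bases, at coding positions 787 to 850 of ALDH3B1 and 544 to 607 of ALDH3B2:
ALDH3B2 and ALDH3B1, shared run: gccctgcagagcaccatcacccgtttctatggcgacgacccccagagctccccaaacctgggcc
Reads inside this run fit both genes, and the deposited value of ALDH3B2 was not a whole number in 8 of 8 libraries. Of the 50-base words of ALDH3B2 transcripts, 1.08% occur in ALDH3B1. ALDH6A1 was also not whole in 8 of 8 libraries, and the other 8 members were whole in every library. The largest overlap with any gene was that of ALDH4A1, which shares 37.6% of its 50-base words with AL080251.1, a gene with no row in the table. The values of ALDH4A1 were whole in every library, so they show no fractional split of reads. Whether all reads of the shared stretch were counted for ALDH4A1 is not known, because the annotation is not given.

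All 10 members passed the filter on low counts. None was called higher in NPY1R high and 2 were called lower, ALDH1A3 and ALDH7A1. The background over all tested genes was 5.78% called higher and 7.81% called lower, and the members' median log2 difference was −0.08 beside −0.03 over all tested genes. With 10 members, 2 called in either direction stand beside a background of 13.6%. At an unadjusted p under 0.05, which 26.2% of all tested genes passed, 4 members passed, of which ALDH1B1 was higher and ALDH1A3, ALDH6A1 and ALDH7A1 were lower. The same 4 were the members whose libraries did not overlap between the groups, which held for 20.2% of all tested genes. DESeq2 called 1 member higher, ALDH1B1 (adjusted p = 0.0334).

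**Figure D1:**
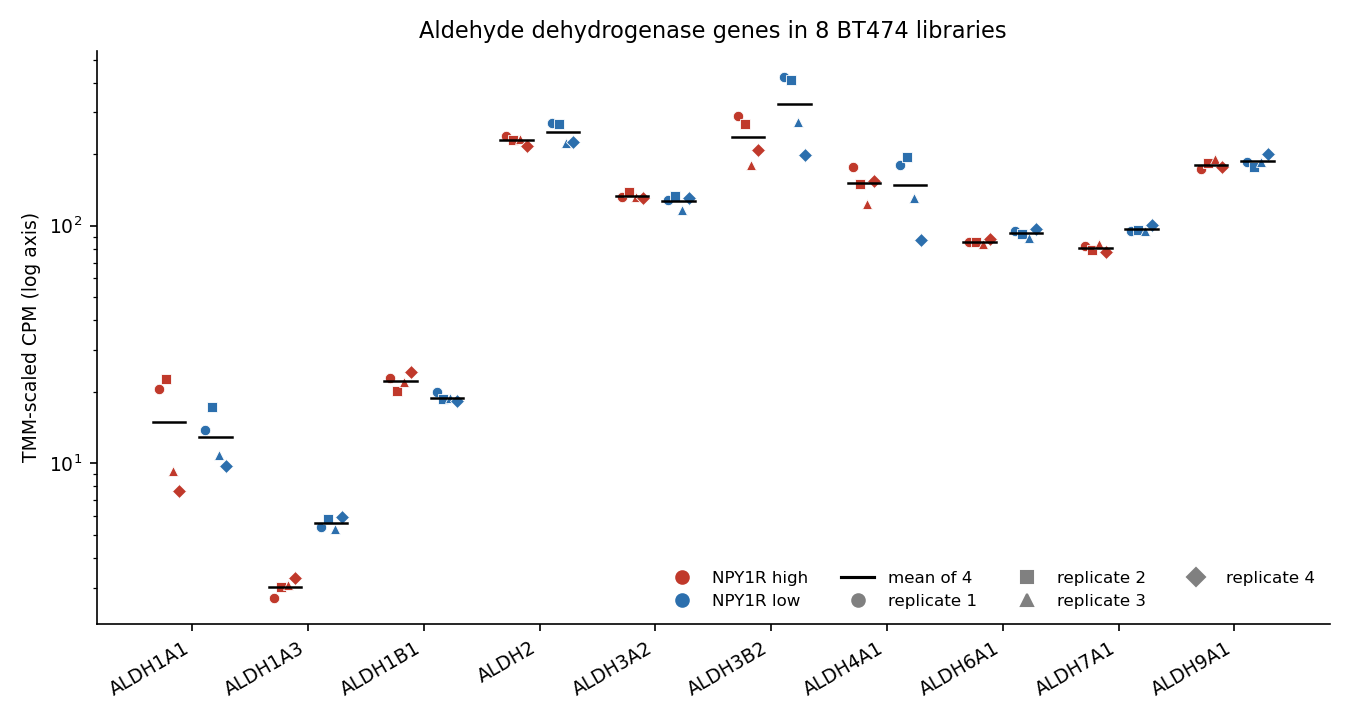
TMM-scaled CPM (log axis) of the 10 members in each of the 8 libraries, with NPY1R high in red, NPY1R low in blue, a marker shape for each replicate number and a bar at the mean of 4. ALDH1A3, ALDH6A1 and ALDH7A1 lie lower in all 4 NPY1R high libraries than in any NPY1R low library, and ALDH1B1 lies higher. The groups did not overlap in 20.2% of all tested genes. In ALDH1A1 replicates 1 and 2 lie above replicates 3 and 4 in both groups.

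**Figure D2:**
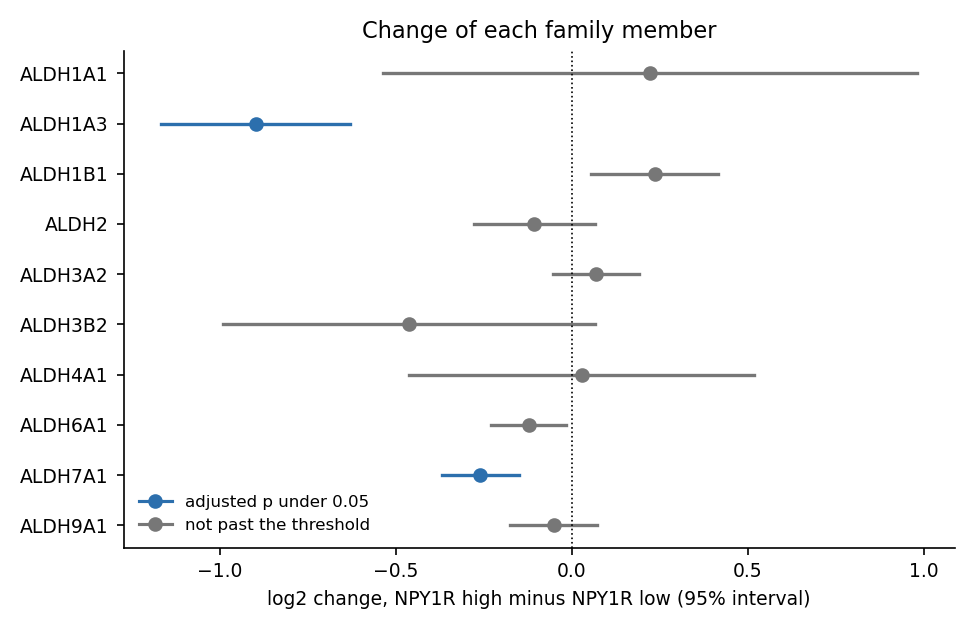
Log2 difference of each member, NPY1R high minus NPY1R low, with a 95% interval derived from the F statistic of edgeR's quasi-likelihood test on 4 libraries per group. The intervals of ALDH1A3 (−1.17 to −0.63) and ALDH7A1 (−0.37 to −0.15), in blue, passed an adjusted p of 0.05, and the other 8 did not.

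Of the enzymes that make retinoic acid, ALDH1A3 (chr15:100877714-100916626, plus strand) was the member that differed most. It was at 2.71, 3.01, 3.08 and 3.30 CPM in NPY1R high and at 5.40, 5.81, 5.31 and 5.97 CPM in NPY1R low. Every NPY1R high library was below every NPY1R low library. The means were 3.03 ± 0.243 CPM (SD, n = 4) and 5.62 ± 0.319 CPM (SD, n = 4), 1.86-fold lower in NPY1R high, with a log2 difference of −0.90 (SE 0.12; edgeR adjusted p = 0.00083267). These levels rest on 60 to 85 counts per library in NPY1R high and 116 to 166 in NPY1R low. In replicates 3 and 4 alone the log2 difference was −0.79 and the call was lost (adjusted p = 0.0763).

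ALDH1A1 (chr9:72900662-73080442, minus strand) also oxidises retinal, in the cytosol, and its values followed another division. NPY1R high replicates 1 to 4 were at 20.5, 22.5, 9.26 and 7.65 CPM, and NPY1R low replicates 1 to 4 were at 13.8, 17.2, 10.8 and 9.74 CPM. The groups overlapped, whereas replicates 1 and 2 of both groups (13.8 to 22.5 CPM) lay above replicates 3 and 4 of both groups (7.65 to 10.8 CPM). ALDH1A1 was the only member in which those subsets did not overlap. How many of all tested genes separate in this way was not counted. The log2 difference between NPY1R high and low was 0.22 (SE 0.34; 95% interval −0.54 to 0.98; edgeR adjusted p = 0.755). Within replicates 1 and 2 it was 0.51 (edgeR adjusted p = 0.00821), and within replicates 3 and 4 it was −0.25 (adjusted p = 0.539). What replicates 1 and 2 share is not stated in the labels, and the difference between these subsets was not tested.

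The mitochondrial pair that oxidises acetaldehyde did not pass the threshold. ALDH2 (chr12:111766887-111817529, plus strand) is the main acetaldehyde dehydrogenase. It was at 239, 231, 231 and 217 CPM in NPY1R high and at 272, 269, 223 and 224 CPM in NPY1R low. The ranges overlapped through NPY1R low replicates 3 and 4, and the log2 difference was −0.11 (SE 0.08; edgeR adjusted p = 0.441). In replicates 1 and 2 alone ALDH2 was called lower (−0.17; adjusted p = 0.0272).

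ALDH1B1 (chr9:38392664-38398661, plus strand) is the closest relative of ALDH2 and lies in the same compartment. Its NPY1R high libraries were at 22.9, 20.1, 22.1 and 24.1 CPM and its NPY1R low libraries at 20.0, 18.7, 18.8 and 18.2 CPM. The groups did not overlap, although the gap between the nearest libraries was small, and the log2 difference was 0.24 (SE 0.08; 95% interval 0.06 to 0.42) with an edgeR adjusted p of 0.0877. ALDH1B1 passed the threshold under 7 of 24 alternatives, among them library totals (adjusted p = 0.0437), upper-quartile factors (0.0471) and an offset for each library's trend with transcript GC content (0.021).

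Among the enzymes for fatty aldehydes, ALDH3A2 (chr17:19648136-19677598, plus strand) acts on long-chain aldehydes from membrane lipids and is the gene of Sjögren-Larsson syndrome. It was at 132, 139, 133 and 130 CPM in NPY1R high and at 129, 133, 117 and 131 CPM in NPY1R low. The groups overlapped, with a log2 difference of 0.07 (SE 0.05; edgeR adjusted p = 0.491). The 95% interval of that difference was −0.05 to 0.19.

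ALDH3B2 (chr11:67662162-67681200, minus strand) is a lipid aldehyde dehydrogenase related to ALDH3B1. It was at 289, 268, 181 and 208 CPM in NPY1R high and at 424, 409, 273 and 198 CPM in NPY1R low. NPY1R low replicates 3 and 4 fell within the range of the NPY1R high libraries, while NPY1R low replicates 1 and 2 were the highest of all 8. The log2 difference was −0.46 (SE 0.24; 95% interval −0.99 to 0.07; edgeR adjusted p = 0.257). Without NPY1R low replicate 4 the difference was −0.60 and passed the threshold (adjusted p = 0.0358), and in replicates 1 and 2 alone it was −0.54 (adjusted p = 1.13e-05). With the replicate number as a block, ALDH3B2 was called lower at −0.42 (adjusted p = 0.0453), and when the division of replicates 1 and 2 from 3 and 4 entered the model it was called lower at −0.43 (adjusted p = 0.0133). ALDH3B1, with which it shares reads, averaged 3.14 ± 0.539 CPM in the NPY1R high libraries against 3.27 ± 0.837 CPM in the NPY1R low ones (SD, n = 4 each).

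Of the amino acid enzymes, ALDH7A1 (chr5:126531200-126595418, minus strand) was called lower. It oxidises the semialdehyde of lysine breakdown and betaine aldehyde from choline, and its loss causes pyridoxine-dependent epilepsy. NPY1R high libraries were at 82.1, 79.3, 84.1 and 77.9 CPM and NPY1R low libraries at 94.7, 96.2, 95.2 and 101.06 CPM, with no overlap. The difference was small, 1.2-fold lower in NPY1R high, on the log2 scale −0.26 (SE 0.05; edgeR adjusted p = 0.0064285). Without NPY1R high replicate 4 the adjusted p was 0.0506, and in replicates 3 and 4 alone the difference was −0.25 with an adjusted p of 0.203.

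ALDH6A1 (chr14:74056850-74084493, minus strand) handles the semialdehydes of valine and thymine breakdown and forms propionyl-CoA or acetyl-CoA. It was at 85.4, 85.4, 83.8 and 87.6 CPM in NPY1R high and at 94.8, 92.2, 88.9 and 96.5 CPM in NPY1R low. All 4 NPY1R high libraries were below all 4 NPY1R low libraries. The means differed by 1.09-fold and the log2 difference was −0.12 (SE 0.05; 95% interval −0.23 to −0.02), which did not pass the threshold (edgeR adjusted p = 0.132). It passed when the GC offset was joined with the replicate block (adjusted p = 0.0405).

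ALDH4A1 (chr1:18871430-18902781, minus strand) turns the semialdehyde of proline breakdown into glutamate. It was at 176, 150, 123 and 155 CPM in NPY1R high and at 180, 195, 131 and 87.2 CPM in NPY1R low. NPY1R low held both the highest libraries and the lowest one, and the log2 difference was 0.03 (SE 0.22; 95% interval −0.46 to 0.52; edgeR adjusted p = 0.960). Its sign changed with the libraries used, from −0.16 in replicates 1 and 2 alone to 0.38 in replicates 3 and 4 alone.

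ALDH9A1 (chr1:165662216-165698863, minus strand) oxidises aminoaldehydes on the way to carnitine and GABA. It was at 173, 183, 191 and 176 CPM in NPY1R high and at 186, 177, 186 and 200 CPM in NPY1R low. The groups overlapped, and the log2 difference was −0.05 (SE 0.06; 95% interval −0.17 to 0.07; edgeR adjusted p = 0.633).

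Levels were compared between members per kilobase of the longest annotated transcript. In both groups the order was ALDH3B2, ALDH9A1, ALDH4A1, ALDH3A2, ALDH2, ALDH7A1, ALDH6A1, ALDH1B1, ALDH1A1 and ALDH1A3. ALDH3B2 was at 89.3 ± 19.0 CPM per kb in NPY1R high against 123.1 ± 41.2 in NPY1R low (SD, n = 4 each), and ALDH1A3 was at 0.771 ± 0.0619 and 1.43 ± 0.0813 CPM per kb, a span of 96.3-fold over the mean of all libraries. Neighbours whose libraries overlapped were ALDH1B1 with ALDH1A1 in both groups, ALDH3B2 with ALDH9A1 and ALDH7A1 with ALDH6A1 in NPY1R high, and ALDH4A1 with ALDH3A2 in NPY1R low. The middle of this order and the span depend on the length used. Per kilobase of the median transcript, ALDH3A2 and ALDH2 were above ALDH4A1, ALDH6A1 above ALDH7A1 and ALDH1A1 above ALDH1B1 in both groups. By that length ALDH3B2 remained the highest, with means of 329 in NPY1R high and 453 in NPY1R low. ALDH1A3 remained the lowest, at 4.24 and 7.89, and the span was smaller than with the longest transcript.

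Of the summed CPM per kb of the 10 members, ALDH3B2 made up 28.9% ± 3.74 (SD, n = 4) in NPY1R high and 34.9% ± 6.48 (SD, n = 4) in NPY1R low, and ALDH9A1 made up 22.1% ± 2.66 and 20.7% ± 4.48. The retinal dehydrogenases were minor parts, ALDH1A1 at 2.26% ± 1.00 and 1.76% ± 0.216, and ALDH1A3 at 0.254% ± 0.0390 and 0.425% ± 0.0841. The members summed to 1138 ± 76.4 CPM in NPY1R high against 1263 ± 179 CPM in NPY1R low (SD, n = 4 each), and these sums overlapped.

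**Figure D3:**
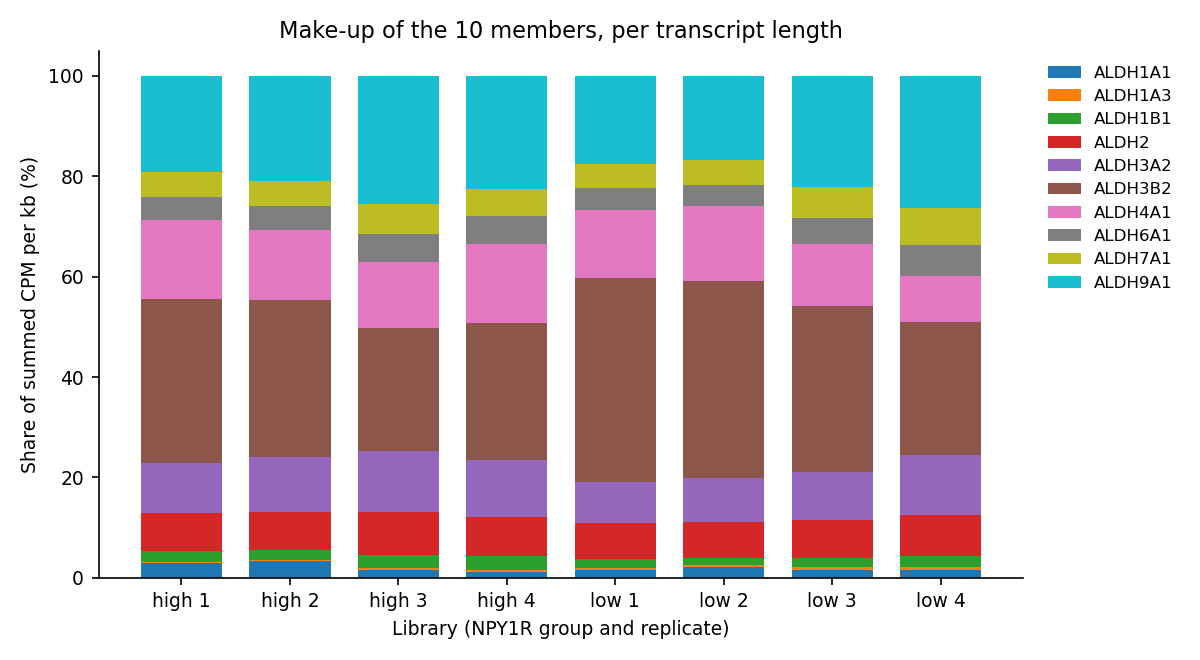
Share of each member in the summed CPM per kb of the 10 members (percent, longest transcript), with 1 bar per library, the 4 NPY1R high libraries on the left and the 4 NPY1R low libraries on the right. ALDH3B2 averages 28.9% in NPY1R high and 34.9% in NPY1R low and is the largest band in all bars except NPY1R high replicate 3 (24.5% against 25.5% for ALDH9A1), and NPY1R low replicate 4 lies within the range of the NPY1R high libraries.

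The members differed in how far libraries of 1 group spread. In NPY1R high the coefficient of variation was 50.8% in ALDH1A1, 21.3% in ALDH3B2 and 14.5% in ALDH4A1, and at most 8.03% in the other 7. In NPY1R low it was 33.4% in ALDH3B2, 33.1% in ALDH4A1 and 25.9% in ALDH1A1, and at most 10.9% in the rest. ALDH3B2 and ALDH4A1 have the members' most GC-rich transcripts, at 59.7% and 60.5%, and ALDH1A1 the least, at 41.9%. ALDH6A1, at 42.8%, is nearly as low in GC but varied little, by 1.8% in NPY1R high and 3.56% in NPY1R low.

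The libraries themselves differed in how level followed transcript GC content. Spearman's rho across tested genes between a library's deviation from the mean and transcript GC content was 0.385, −0.006, −0.425 and 0.0984 in NPY1R high replicates 1 to 4 and 0.464, 0.433, −0.0233 and −0.546 in NPY1R low replicates 1 to 4. ALDH4A1 was lowest in NPY1R low replicate 4, the library with the lowest rho, and highest in NPY1R low replicates 1 and 2, which had the highest. With the GC offset its SE fell from 0.22 to 0.10, and that of ALDH3B2 from 0.24 to 0.13, with a log2 difference of −0.40 in ALDH3B2 (edgeR adjusted p = 0.0542). The SE of ALDH1A1 was 0.34 without the offset and 0.33 with it. ALDH1A3 and ALDH7A1 remained called with the offset, at −0.88 (adjusted p = 0.000385) and −0.29 (adjusted p = 0.000699). Calls lower over all tested genes rose from 1094 to 1797 with the offset, which is fitted to these same libraries. The cause of the spread between libraries was not tested.

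**Figure D4:**
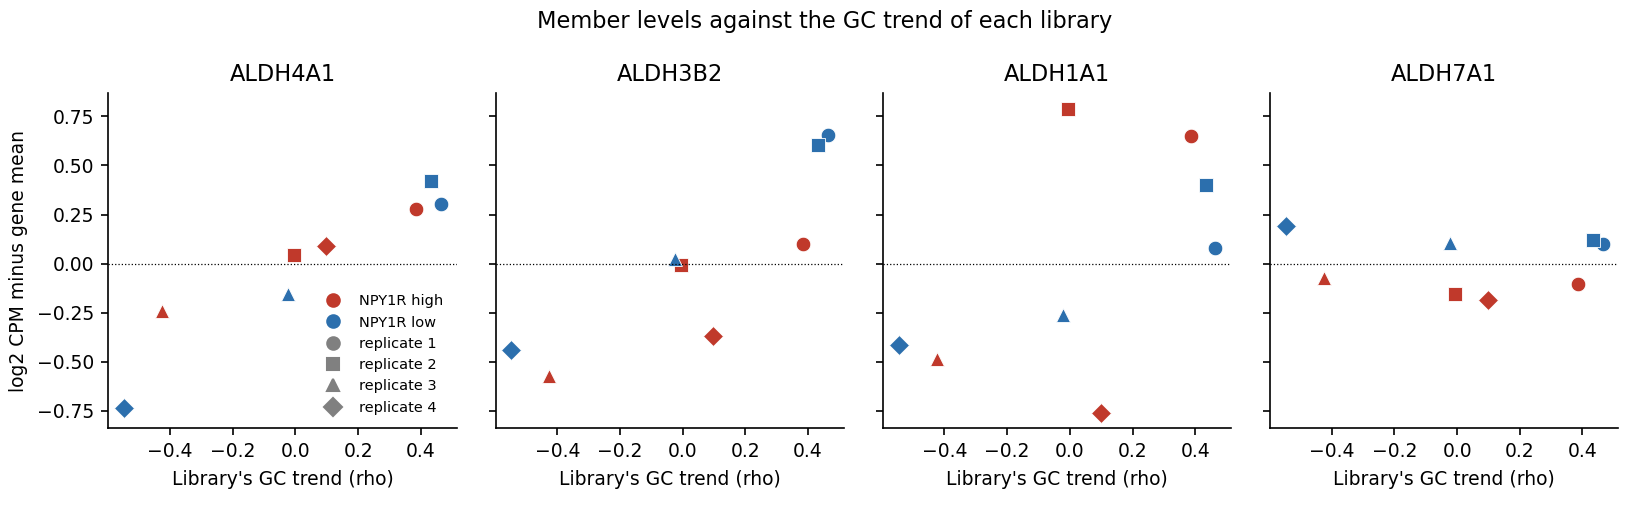
Log2 CPM of 4 members minus the gene's mean over the 8 libraries, plotted against each library's rho between level and transcript GC content (NPY1R high in red, NPY1R low in blue, marker shape for the replicate number). In ALDH4A1 the libraries line up with the rho from −0.546 to 0.464. In ALDH7A1 the 4 NPY1R low libraries lie above the 4 NPY1R high libraries, which span rho from −0.425 to 0.385.

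Of the other 9 human ALDH genes, 6 passed the filter on low counts. ALDH18A1, which makes the proline precursor from glutamate and so runs against ALDH4A1, was at 141 ± 5.43 CPM in NPY1R high against 164 ± 12.2 CPM in NPY1R low (SD, n = 4 each). It was called lower at −0.21 (SE 0.06; edgeR adjusted p = 0.0487), a call that was lost under 16 of 24 alternatives, among them leaving out any 1 library except NPY1R low replicate 3 (adjusted p up to 0.202). ALDH1A2, the third retinal dehydrogenase, had 9 counts over all 8 libraries, ALDH1L1 had 3 and ALDH3A1 had 4, so a difference in them was not detectable at this depth. The remaining 5 that were tested, ALDH1L2, ALDH3B1, ALDH5A1, ALDH8A1 and ALDH16A1, were not called. Of these, ALDH5A1 was at 28.7 ± 0.912 against 24.1 ± 2.15 CPM (SD, n = 4 each), with no overlap between the groups. Its log2 difference was 0.25 (SE 0.08; edgeR adjusted p = 0.0651). DESeq2 called 1 of the other ALDH genes higher, beside 1033 of 14008 tested genes.

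Around the retinal dehydrogenases, 19 of 30 listed genes of retinoid metabolism and signalling were tested. Of these, 1 was called higher and 3 lower, with a median log2 difference of 0.02. The background over all tested genes was 5.78% called higher, 7.81% called lower and a median of −0.03. It stands beside the other ALDH genes, this list and each list below. DHRS3, which reduces retinal back to retinol, was higher at 3.19 ± 0.281 against 1.23 ± 0.424 CPM (SD, n = 4 each; log2 1.38, SE 0.24; edgeR adjusted p = 0.0040016). RDH10, which makes the retinal that ALDH1A3 uses, was lower at 21.6 ± 2.10 against 29.4 ± 1.64 CPM (−0.45; adjusted p = 0.0072835). CRABP2, the carrier of retinoic acid to its nuclear receptors, was lower at 44.5 ± 3.18 against 61.4 ± 5.96 CPM (−0.47; adjusted p = 0.004496). RARRES1, named for its induction by retinoids, was lower at 4.87 ± 0.897 against 12.0 ± 1.67 CPM (−1.29; adjusted p = 0.00044834). CYP26B1, which degrades retinoic acid, had 4 counts in all and was not tested. In replicates 3 and 4 alone the calls of DHRS3, RDH10 and CRABP2 were lost (adjusted p = 0.0535, 0.095 and 0.257).

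Of the alcohol dehydrogenases and aldehyde reductases, 9 of 21 listed genes were tested, with 2 higher, 3 lower and a median of −0.09. ADH5, which oxidises the glutathione adduct of formaldehyde, was higher by 0.25 on the log2 scale (adjusted p = 0.014802), and the carbonyl reductase DHRS2 by 0.52 (adjusted p = 0.0035983). The aldose reductase AKR1B1 was lower at 0.117 ± 0.0800 against 0.701 ± 0.199 CPM (−2.41; adjusted p = 0.0065716), on 85 counts over all libraries. Its relative AKR1B10, which reduces retinal among other aldehydes, was lower at 1.06 ± 0.215 against 5.03 ± 1.25 CPM (−2.25; adjusted p = 0.0001656). CBR3, another carbonyl reductase, was lower at −0.50 (adjusted p = 0.0094648). AKR1B10 has a close paralog next to it, AKR1B15, with 4 counts, so its reads may be split between them. In replicates 3 and 4 alone the calls of ADH5, AKR1B1 and CBR3 were lost (adjusted p = 0.112, 0.0608 and 0.307). Leaving out 1 library ended the call of ADH5 without NPY1R low replicate 3 (0.0533) and that of CBR3 without NPY1R low replicate 1 (0.05).

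In the list of fatty aldehyde formation and sphingolipid breakdown, 17 of 21 genes were tested, with 4 higher, 2 lower and a median of 0.02. SGPL1, the lyase that releases the fatty aldehyde on which ALDH3A2 acts, was lower at 170 ± 7.89 against 202 ± 7.90 CPM (−0.25; edgeR adjusted p = 0.011544), and FAR2, which forms fatty alcohols, was lower at −0.46 (adjusted p = 0.004556). The call of SGPL1 was lost under 7 of 24 alternatives, among them without NPY1R high replicate 3 (adjusted p = 0.0718), NPY1R high replicate 4 (0.0553) or NPY1R low replicate 1 (0.0733). ASAH1, acid ceramidase, was higher at 361 ± 25.8 against 207 ± 7.23 CPM (0.80; adjusted p = 2.3532e-05). The fatty acid hydroxylases CYP4F3, CYP4F8 and CYP4F11 were higher by 1.89, 1.31 and 0.81 at means of at most 5.45 CPM. These 3 are close paralogs, so their split is uncertain, and the call of CYP4F11 was lost under 12 of 24 alternatives, among them leaving out any 1 library except NPY1R low replicate 2 (adjusted p up to 0.103). CYP4F8 lost its call in replicates 3 and 4 alone (adjusted p = 0.282).

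Of branched-chain amino acid breakdown, the pathway of ALDH6A1, 26 of 27 genes were tested, with 3 higher, 1 lower and a median of −0.05. PPM1K, the phosphatase that activates the branched-chain ketoacid dehydrogenase, was higher at 127 ± 21.4 against 57.5 ± 9.39 CPM (1.15; edgeR adjusted p = 0.00047228). ABAT, a transaminase of GABA that also makes a semialdehyde used by ALDH6A1, was higher at 131 ± 6.05 against 67.1 ± 8.07 CPM (0.96; adjusted p = 6.2768e-05). The subunits of the leucine enzyme methylcrotonyl-CoA carboxylase differed in opposite directions, MCCC1 by 0.20 (adjusted p = 0.039699) and MCCC2 by −0.18 (adjusted p = 0.021985), and these calls were lost under 9 and 16 of 24 alternatives. Without 1 library, MCCC1 was lost for NPY1R high replicates 1 and 2 and NPY1R low replicates 1, 2 and 3 (adjusted p up to 0.117), and MCCC2 for every library except NPY1R low replicate 2 (up to 0.159). HIBADH, the enzyme just before ALDH6A1 in valine breakdown, was at 117 ± 7.33 against 113 ± 9.58 CPM and was not called (0.05; adjusted p = 0.742).

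In the proline, ornithine and glutamate list, the pathway of ALDH4A1, 13 of 15 genes were tested, with 1 higher, 3 lower and a median of −0.07. OAT, which makes the same semialdehyde from ornithine, was lower at 5.37 ± 1.03 against 11.6 ± 1.48 CPM (−1.11; edgeR adjusted p = 0.0011902). GLUL, glutamine synthetase, was higher by 0.36 (adjusted p = 0.017633), and GOT1 and GLUD1 were lower at −0.25 and −0.21 (adjusted p = 0.012271 and 0.039155). The call of GLUD1, which has a near-identical copy in GLUD2, was lost under 18 of 24 alternatives, among them leaving out any 1 library (adjusted p 0.0507 to 0.205). That of GOT1 was lost under 5, among them replicates 3 and 4 alone (0.405), without NPY1R high replicate 4 (0.0777) and without NPY1R low replicate 1 (0.0738), and that of GLUL under 2, the threshold of 0.01 and without NPY1R low replicate 1 (0.0521). PRODH, the step before ALDH4A1, was at 35.0 ± 7.0 against 47.1 ± 18.5 CPM (−0.43; adjusted p = 0.382), and PYCR1, which runs the pathway back to proline, at 109.8 ± 11.4 against 133.8 ± 23.8 CPM (−0.28; adjusted p = 0.187).

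Of lysine breakdown, choline oxidation and carnitine synthesis, the pathways of ALDH7A1 and ALDH9A1, 15 of 21 genes were tested, with none higher, 1 lower and a median of 0.03. DHTKD1, which acts after ALDH7A1 in lysine breakdown, was lower at 190 ± 6.44 against 297 ± 14.7 CPM (−0.64; edgeR adjusted p = 4.0241e-05) and stayed called under all 24 alternatives. DHTKD1 was also the only gene of this list with an unadjusted p under 0.05, and DESeq2 called 1 lower there as well. AASS, which opens the pathway, was at 4.30 ± 0.719 against 3.55 ± 0.399 CPM (0.27; adjusted p = 0.336), and BBOX1, the last step of carnitine synthesis, at 0.981 ± 0.260 against 0.802 ± 0.345 CPM (0.30; adjusted p = 0.653). Neither was called.

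**Figure D5:**
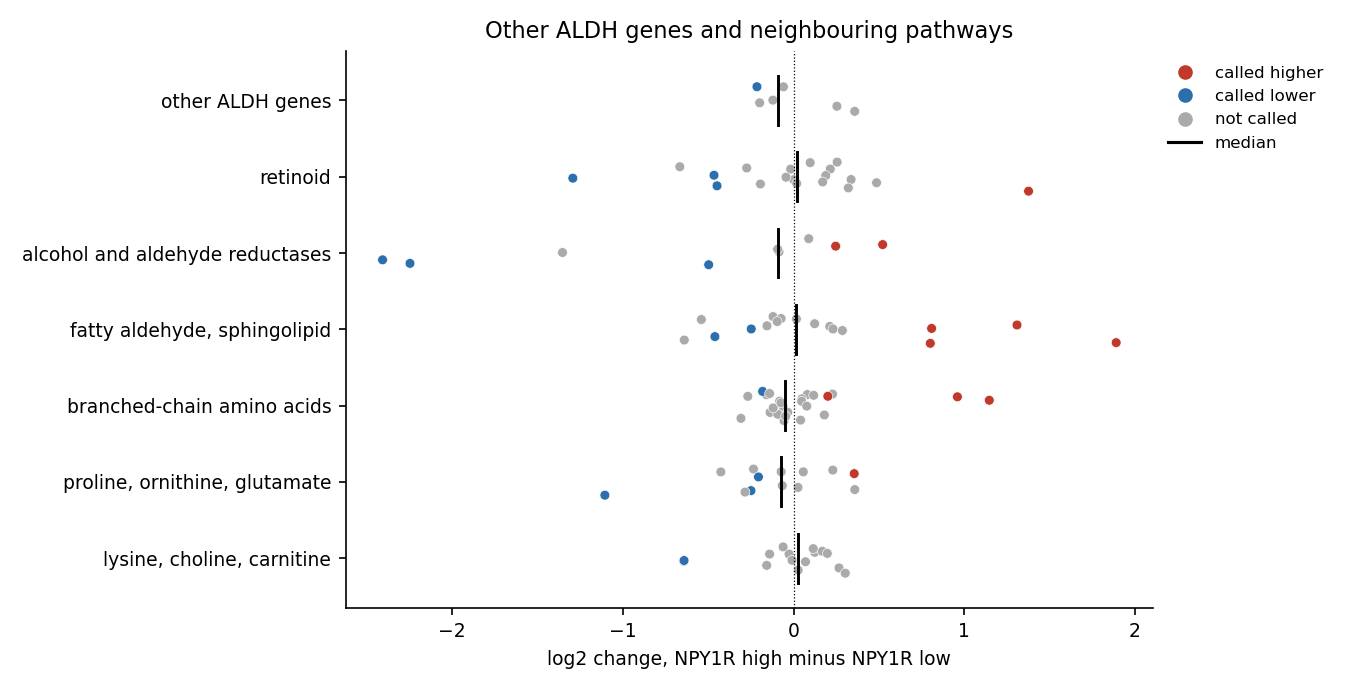
Log2 difference, NPY1R high minus NPY1R low, of each tested gene in the list of other ALDH genes and in 6 pathway lists, with called higher genes in red, called lower genes in blue, the rest in grey and a bar at the median. The medians lie between −0.09 and 0.03, beside −0.03 over all tested genes. The genes farthest from 0 are AKR1B1 (−2.41), AKR1B10 (−2.25) and CYP4F3 (1.89).

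The pattern of ALDH1A3 over the 8 libraries was set beside those of 10442 tested genes with a mean of at least 5 CPM. The closest 3 were PLCH1, a phospholipase C, with a root mean square difference of 0.0648 in mean-centred log2 CPM, the glutamate transporter gene SLC1A1 at 0.0783, and FAM114A1 at 0.0962. Their own log2 differences were −0.94, −0.81 and −0.97, each called lower by edgeR (adjusted p = 5.6522e-05, 0.00037207 and 6.3269e-05). They were chosen for this likeness over the same 8 libraries, so their differences and calls follow from the choice and are no separate evidence.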

How the data were processed

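RNA-seq expected counts per gene symbol were deposited by the authors, unscaled, for 8 libraries. Per the submitters' processing notes, STAR 2.5.2, RSEM 1.3.0 and build hg38 were used. The annotation is not given in the sources used here. Between 7.97% and 8.76% of a library's values were not whole, and counts were rounded. Genes passing edgeR's filterByExpr (minimum count 10), 14008 of 26475, were scaled by TMM and compared by edgeR's quasi-likelihood test with Benjamini-Hochberg adjustment over all of them. Software was DESeq2 1.42.0, limma 3.58.1 and edgeR 4.0.16 in R 4.3.3. CPM is TMM-scaled, log2 CPM used a prior count of 2, and the common biological coefficient of variation was 13.6%. Total counts were 18025648 to 30609791 per library, and counts without molecular identifiers give counting error only in part.

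The members and gene lists were chosen with earlier results of these data known. The division of replicates 1 and 2 from 3 and 4 was also known from them. Text names all members, the called other ALDH genes, up to 4 called genes per direction and list, a few fixed partner enzymes, and the 3 genes most like ALDH1A3. Transcript lengths, GC content (97.1% of tested genes), positions and coding sequences came from GENCODE 29 (GRCh38). Alternatives covered scaling, filters, tool, rounding, a GC offset (spline with 5 degrees of freedom), replicate blocks, subsets and left-out libraries. The fit was tested on simulated data in which no gene beyond the 200 changed ones differed and no GC trend was drawn. Of 200 genes changed by 1 on the log2 scale 161 were called, by 0.5, 56, and by 0.25, 0. Promoter sequences were not used here.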

Additional observations from a re-analysis of the deposited data

How the results depend on the processing

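Over 24 alternatives the count of members called higher was 1, in place of 0, under upper-quartile factors, library totals, a filter of 1 CPM in 4 libraries, DESeq2, the GC offset, the replicate block with GC offset, the subset term with GC offset and replicates 1 and 2 alone. Over all tested genes the calls higher rose from 810 to 1009, 949, 965, 1033, 1162, 1317, 1656 and 1421 in the same order. That member was ALDH1A1 in the last of these and ALDH1B1 in the others. The count called lower, 2, became 4 under the replicate block with GC offset, the subset term with GC offset and replicates 1 and 2 alone, and 0 in replicates 3 and 4 alone. Over all tested genes the calls lower went from 1094 to 1984, 2466, 1594 and 443 in the same order. The added members were ALDH3B2 in each of those 3 fits, with ALDH6A1 in the GC-offset fits and ALDH2 in replicates 1 and 2 alone. Leaving out 1 library gave 0 members higher in each case and between 1 and 3 lower: 1 without NPY1R high replicate 4, where ALDH7A1 was lost, and 3 without NPY1R low replicate 4, where ALDH3B2 was added. Those fits called 625 and 1064 of all tested genes lower, beside 1094 in the main fit. With 1 library left out, calls higher over all tested genes ran from 624 to 1068. The subset term with GC offset was chosen after seeing the data. The cause of these shifts was not tested.

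With the replicate number as a block alone, members lower numbered 3, and likewise with the subset term alone, with ALDH3B2 added in both. Over all genes these fits called 1028 and 1681 lower. The numbers were not treated as a pairing in the main fit, because the labels do not say that they mark shared cultures. Same-numbered libraries correlated in their deviations at 0.339, 0.157, 0.0907 and 0.0178. Whether they are paired was not tested.

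Signs reversed in members that were not called: ALDH1A1 to −0.25 in replicates 3 and 4 alone and −0.04 without NPY1R high replicate 2, ALDH2 to 0.0341 in replicates 3 and 4 alone, ALDH4A1 to −0.16 in replicates 1 and 2 alone and to −0.06, −0.03 and −0.12 without NPY1R high replicate 1, NPY1R low replicate 3 and NPY1R low replicate 4, and ALDH9A1 to 0.00192 under upper-quartile factors, 0.0101 in replicates 1 and 2 alone and 0.0186 without NPY1R low replicate 4. Over the left-out libraries ALDH1A1 spanned −0.04 to 0.472, ALDH4A1 −0.122 to 0.189 and ALDH9A1 −0.0773 to 0.0186. AASS reversed to −0.0355 in replicates 1 and 2 alone. ALDH1A3 stayed called lower under all alternatives except replicates 3 and 4 alone (range −0.93 to −0.79). In the simulation 0 of 200 genes changed by 0.25 were called. Only those 200 genes were changed there, whereas 1904 of 14008 were called in the data. The simulated share therefore does not give the power of this fit, which called ALDH7A1 at −0.26. Differences of that size can still be missed with 4 libraries per group.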
